A study of Mus musculus with 24 samples.

Results

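The genes described here build, fold, modify and dispose of proteins in the endoplasmic reticulum (ER), or belong to the unfolded protein response that adjusts this machinery. They were chosen by name, as 34 of the 22009 named genes measured by RNA sequencing, and comprise 9 soluble chaperones and co-chaperones, 2 lectin chaperones, 4 disulfide isomerases, 3 genes for the stress sensors and Xbp1, 7 of the translocon, 3 of signal peptidase and 6 of ER-associated degradation. All 34 were above 0 in every library and passed the expression filter. The samples were CD4+ T cells of wild-type C57BL/6 mouse spleen, purified by negative selection and pooled over mice, with no allele altered in any group. The labels speak of purified CD4+ cells, while the methods of the study call the cells of this experiment naive, and neither reading was tested here. Resting cells gave 2 libraries. Cultures activated with anti-CD3 and anti-CD28 gave 18 libraries, 1 for each of Th0 (no further agent), Th1 (IL-12 with an antibody to IL-4) and Th2 (IL-4 with antibodies to IL-12 and IFN-γ) at 4, 8, 12, 16, 20 and 24 h. The last 4 libraries followed actinomycin, an inhibitor of transcription, added after 16 h of stimulation and left for 0, 1, 2 or 4 h. Their skewing condition is not given. Each culture condition and time point was sequenced once, from pooled cells, so the p-values below measure the spread between libraries, not between animals. The paper states that cells were taken from the cultures every 4 h, so libraries of 1 condition may be serial draws. A culture below means 1 such library. Where conditions are compared, the 6 time points stand in for replicates, and the condition itself was not replicated.

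Proteins bound for secretion or the cell surface enter the ER through the Sec61 channel, lose their signal peptide to signal peptidase, and fold with the help of the Hsp70 chaperone BiP (Hspa5), the Hsp90 chaperone GRP94 (Hsp90b1), the lectins calreticulin and calnexin, and disulfide isomerases. Proteins that fail to fold are drawn back into the cytosol and degraded. When unfolded proteins accumulate, the sensors IRE1 (Ern1), ATF6 and PERK raise the output of chaperone and degradation genes and lower protein synthesis. IRE1 does so by splicing the Xbp1 mRNA, a step that gene-level values do not show. Activated T cells enlarge and begin to make cytokines and surface receptors, which pass through this compartment.

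A known control sequence of the unfolded protein response is the ER stress response element (ERSE), with the letters CCAAT, 9 bases of any kind, then CCACG. It was searched on both strands in the 250 bases before the annotated start in RefSeq promoter sequences (GRCm38.p6). Such promoters were not at hand for Hyou1, Manf, Sec61a1, Ssr2, Spcs3, Atf6 and Derl1, which were not searched. They were at hand for 27 of the 34 genes. The element was present in 8 of these 27 (29.6%), against 37 of all 32851 promoters (0.113%). Of the 8181 genes tested that had such a promoter, 15 carried the element (0.183%). Both of these backgrounds include the 8. The share is a description of letters, and the element was derived from several of these same genes. The matches are shown because the genes that carry them did not all move alike after activation. Of the 8, Hsp90b1, Calr, Canx, Pdia6 and Creld2 rose at 24 h, Hspa5 and Syvn1 did not pass, and Dnajc3 alone fell. Each is written 5′ to 3′ along the gene with 5 flanking bases, and capitals mark the fixed letters, which read CGTGG and ATTGG where the element lies on the opposite strand:
Hspa5, chr2:34772020-34772048, plus strand: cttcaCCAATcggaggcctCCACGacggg
Hsp90b1, chr10:86705633-86705661, minus strand: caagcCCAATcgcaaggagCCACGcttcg
Hsp90b1, chr10:86705528-86705556, minus strand: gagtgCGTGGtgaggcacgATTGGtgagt
Calr, chr8:84847070-84847098, minus strand: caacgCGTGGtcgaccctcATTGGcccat
Canx, chr11:50325795-50325823, minus strand: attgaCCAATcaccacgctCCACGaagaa
Pdia6, chr12:17266486-17266514, plus strand: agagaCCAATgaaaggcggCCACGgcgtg
Creld2, chr15:88819515-88819543, plus strand: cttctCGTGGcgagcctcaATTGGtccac
Dnajc3, chr14:118937822-118937850, plus strand: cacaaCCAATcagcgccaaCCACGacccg
Syvn1, chr19:6046527-6046555, plus strand: cgcaaCCAATcggcggtagCCACGggaac
The outermost bases of the elements lay between 26 and 212 bases before the start. Herpud1 held the related ERSE-II, with the letters ATTGG, 1 base of any kind and CCACG, which 10 of the 32851 promoters have:
Herpud1, chr8:94386372-94386392, plus strand: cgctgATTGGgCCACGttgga
The 8-letter element TGACGTGG, a binding sequence of XBP1 and ATF6, was in none of the 27 promoters and in 185 of the 32851. No match printed here overlaps another.

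The depth was between 17512385 and 33017133 mapped reads over the time course and between 18052931 and 25735543 with actinomycin, as recovered from the values. For 11 of the 34 genes the reads themselves were recovered. The fewest were 162, for Sdf2l1 in Th0 at 4 h, where the exact Poisson 95% interval reached 15.7% to either side. These intervals cover counting error only. The 8 T cell markers, all detected, summed to between 1366 and 2307 RPKM in the 24 libraries. Transcripts of other cells were also present at rest and were lower late in culture. The 6 red cell transcripts in the file, all detected, summed to 38691 and 42234 RPKM at rest, between 29312 and 47024 at 4 h and between 141 and 211 at 24 h, and RPKM is scaled to a total that includes them. The 7 B cell markers summed to 71.8 and 82.8 RPKM at rest and to between 10.2 and 19.5 at 24 h. The 6 plasma cell markers, all detected, summed to 823 and 824 RPKM at rest, between 545 and 679 at 4 h and between 30.7 and 47.8 at 24 h, most of it from Jchain. The 8 macrophage markers summed to 474 and 496 RPKM at rest and to between 7.73 and 12.3 at 24 h. Plasma cells and macrophages also use the genes described here, and the part of these transcripts in the changes against resting cells was not tested. Nor can fewer cells of a type be told apart from less RNA per cell. The resting libraries carry a different tag in their labels from the cultures, so a difference in preparation cannot be told apart from activation.

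The levels at rest, per transcript length, spanned a wide range. The highest was Hspa5, at 547 and 536 RPKM in the 2 libraries. The lectin chaperone Calr followed at 326 and 317 RPKM, and the isomerase Pdia3 at 243 and 236 RPKM. Pdia3 and Hsp90b1 (236 and 234 RPKM) were neighbours in this order whose 2 values nearly met. The sensors had the lowest levels of all, with 5.29 and 5.57 RPKM for Ern1 and 5.73 and 5.897 RPKM for Atf6. The 2 resting libraries agreed closely for some members, for example with 34.3 and 34.7 RPKM for Hyou1. They agreed less closely for others, for example with 40.5 and 45.6 RPKM for Ssr2.

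The first comparison asked how these genes change when T cells leave the resting state. At 4 h the set had moved little as a whole: 3 genes rose and 7 fell at an adjusted p under 0.05 (limma), where 11.5% and 20.2% of all 10897 genes tested did so, and the median log2 change was -0.02 against -0.04 over all genes. From 8 h on most of the set was higher than at rest. At 8 h, 20 genes rose and 4 fell, where 22.5% of all genes rose and 27.9% fell, and the median was 0.49 against -0.06. At 12 h 20 rose and 4 fell (28.9% and 32.5% of all genes), at 16 h 21 and 5 (30.3% and 29.4%), at 20 h 20 and 5 (32.1% and 31.7%), and at 24 h 21 and 6. At 24 h 31.6% of all genes rose and 33.6% fell, so the 21 rises of 34 lay above the background while the 6 falls lay below it, and the median was 0.45 against -0.04. The level of short transcripts also differed from rest. Transcripts under 1000 bases had a median log2 deviation of -0.26 and -0.27 in the 2 resting libraries. In Th0, Th1 and Th2 it was -0.19, -0.08 and -0.16 at 8 h and 0.06, 0.01 and 0.18 at 24 h. The part of transcript length in the changes against rest was not tested. The rises among the 34 genes were mostly modest. A change of at least 2-fold was seen for 1 gene at 4 h (10.6% of all genes), 2 at 8 h (18.9%), 3 at 12 h (27.1%), 2 at 16 h (25.7%), 6 at 20 h (29% of all genes) and 5 at 24 h (30.1%), and from 8 h on the share of the 34 lay below that of all genes at each time. The 5 at 24 h were Hyou1, Sdf2l1 and Pdia6, which rose, and Dnajb9 and Ern1, which fell. The split at 2-fold depends on scaling: 5 rose and 2 fell at 24 h with median-of-ratios scaling, and 1 rose and 2 fell with upper-quartile scaling or quantile normalization. Without the Th1 cultures, 1 rose and 3 fell at 24 h by this rule, and at 8 h the genes that changed at any size went from 24 to 10.

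**Figure D1:**
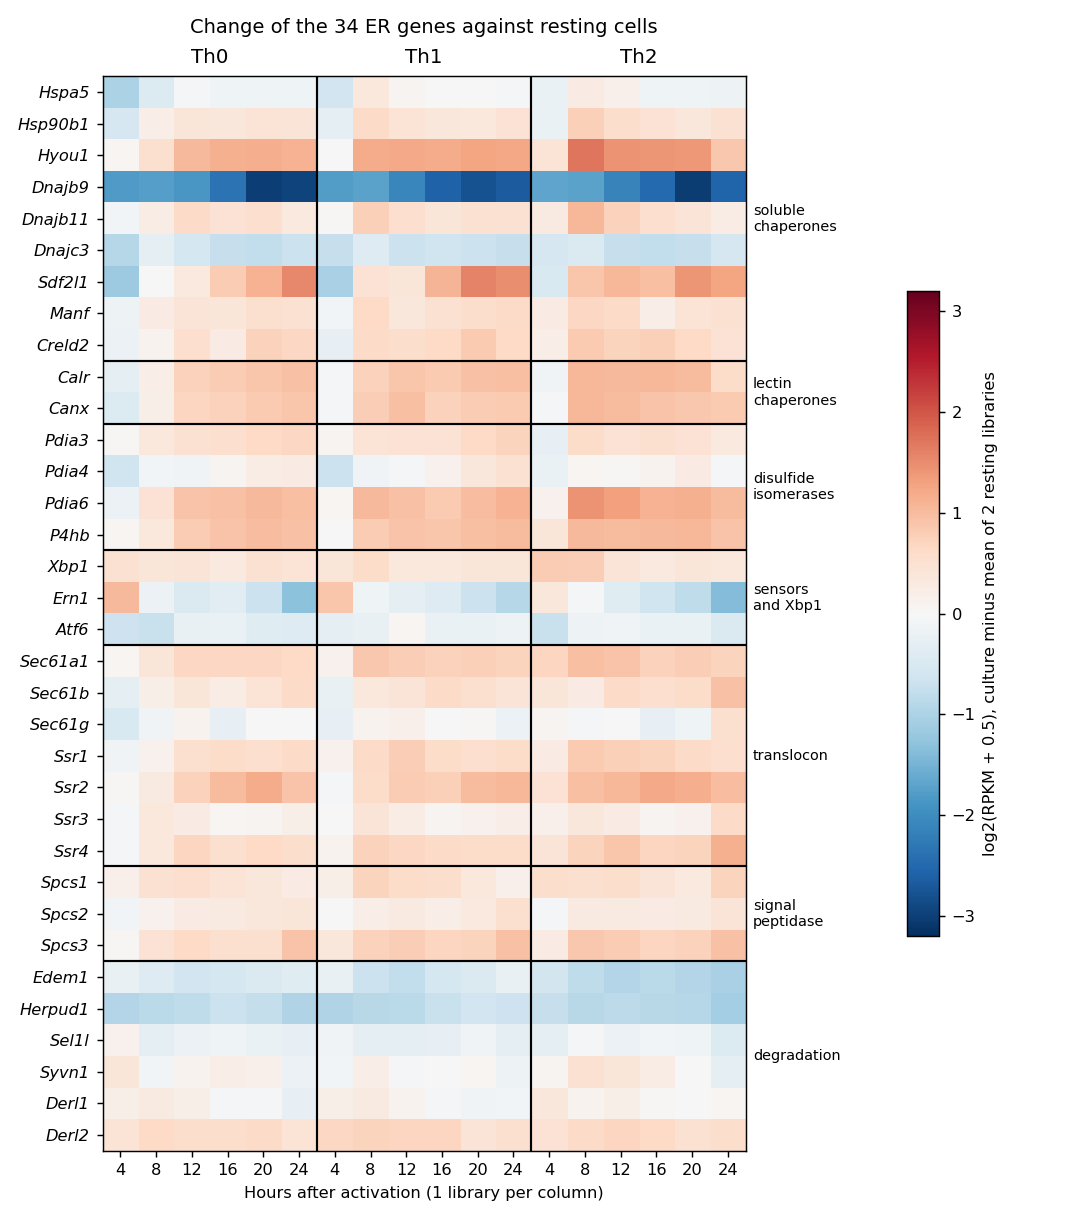
Change of each of the 34 ER genes in each of the 18 cultures, as log2(RPKM + 0.5) minus the mean of the 2 resting libraries (red higher, blue lower), with rows grouped by role and columns by condition and hours after activation. Most rows turn red from 8 h, while Dnajb9, Dnajc3, Herpud1 and Edem1 are blue in all 18 cultures and Ern1 is red at 4 h and blue at 24 h.

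The soluble chaperones split. Hspa5 (BiP), the most abundant, was 547 and 536 RPKM at rest. At 4 h it was 268, 351 and 471 RPKM in Th0, Th1 and Th2. At 8 h it was 401, 684 and 655 RPKM, and at 24 h 495, 516 and 484 RPKM. All 3 cultures were thus below rest at 4 h, with no overlap. Of the 18 cultures, 5 were above both resting libraries and 12 were below both, among them all 3 of 24 h. The fall at 4 h passed the test (log2 change -0.61 ± 0.21 SE, adjusted p = 0.0311, limma), but was lost in 5 of 15 alternatives. Among them were the fits without either resting library and without the Th1 cultures (adjusted p = 0.136 for the latter, limma). At 24 h the log2 change of Hspa5 was -0.12 ± 0.21 SE.

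Hyou1 (chr9:44379490-44392369), a large Hsp70-like protein that releases nucleotide from BiP, was 34.3 and 34.7 RPKM at rest. It measured 35.8, 35.1 and 47.2 RPKM at 4 h in Th0, Th1 and Th2, 49.8, 78.8 and 115 RPKM at 8 h and 74.9, 81.8 and 63.5 RPKM at 24 h. Every culture lay above both resting libraries, narrowly so at 4 h in Th0 and Th1. The rise was 1.14 on the log2 scale at 8 h and 1.07 at 24 h (adjusted p = 9.66e-04, limma), and it held under all 15 alternatives tried.

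Sdf2l1 (chr16:17130138-17132383), a partner of the ER J-domain proteins, took the longest course. At rest it was 14.8 and 13.1 RPKM and at 4 h 6.003, 6.55 and 9.74 RPKM, all 3 below rest. It was 17.5, 18.5 and 29.8 RPKM at 12 h and 41.7, 40.3 and 34.4 RPKM at 24 h, where all 3 were above rest. The fall at 4 h (log2 change -0.89 ± 0.26 SE, adjusted p = 0.0136, limma) lost its call without either resting library (adjusted p = 0.110 and 0.0544) or without Th1 (0.112). The rise at 24 h (log2 change 1.44 ± 0.26 SE, adjusted p = 1.33e-04, limma) held under all 15 alternatives.

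**Figure D2:**
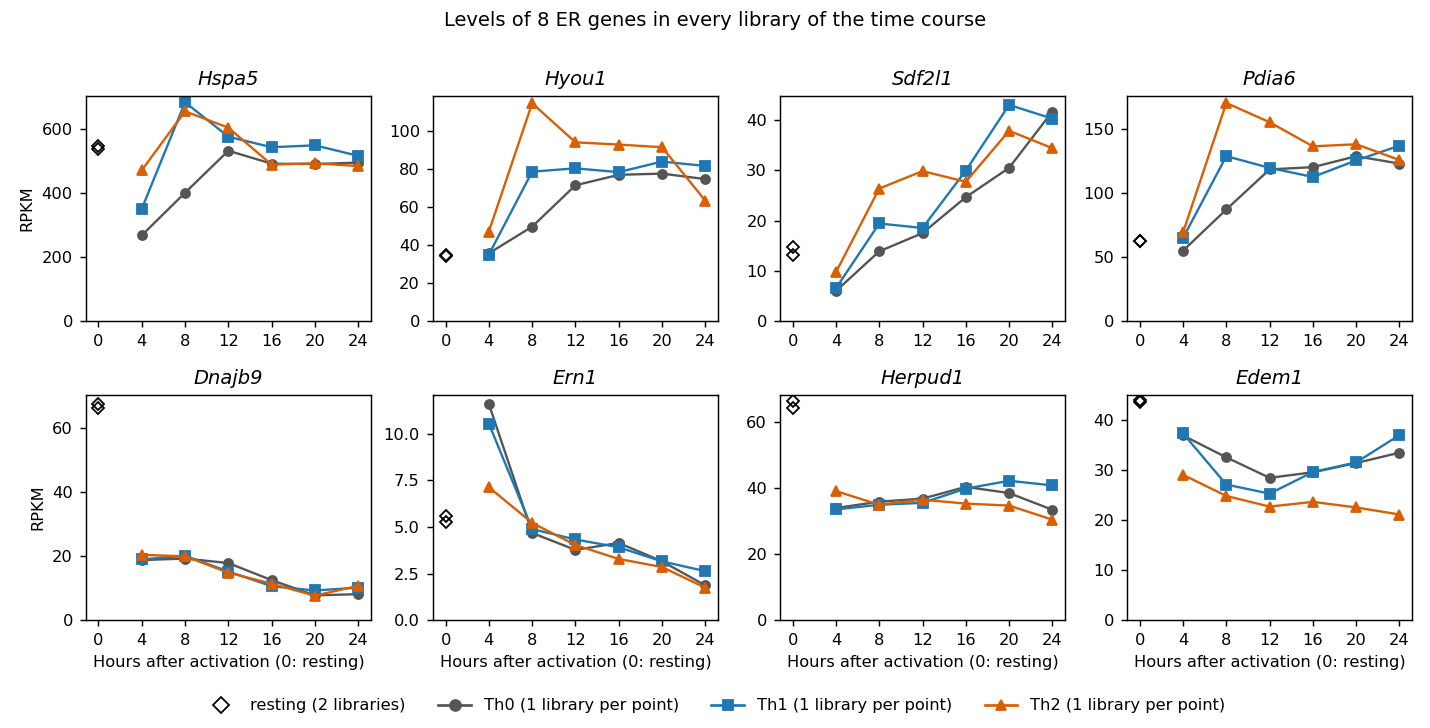
RPKM of 8 ER genes against hours after activation, with the 2 resting libraries at 0 as diamonds and 1 library per point for Th0 (circles), Th1 (squares) and Th2 (triangles). Hyou1, Sdf2l1 and Pdia6 end above the resting level, and Dnajb9, Ern1, Herpud1 and Edem1 end below it. Hspa5 dips at 4 h, rises again and ends slightly below both resting libraries.

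Of the other soluble chaperones, Hsp90b1, Manf and Creld2 rose. Hsp90b1 went from 236 and 234 RPKM at rest to 313, 321 and 332 RPKM at 24 h (log2 change 0.45 ± 0.13 SE, adjusted p = 0.00686, limma). That call was lost in 2 of 15 alternatives, among them without the Th1 cultures (adjusted p = 0.0579, limma). Manf, a small secreted protein of the ER stress response, went from 70.7 and 64.4 to 95.6, 103 and 95.3 RPKM (adjusted p = 0.00329, limma). Creld2, a further ER stress gene, went from 19.5 and 19.7 to 31.04, 30.5 and 27.3 RPKM (adjusted p = 0.0123), but not without either resting library (adjusted p = 0.0596 and 0.0553) or without Th1 (0.0752). Dnajb11, which hands clients to BiP, was highest at 8 h in Th1 and Th2 and at 12 h in Th0. At 8 h it was 76.9, 111 and 136 RPKM in Th0, Th1 and Th2 against 64.1 and 66.2 at rest (adjusted p = 0.00358, limma, and 0.0518 without Th1). Its call at 8 h was lost in 2 of 15 alternatives.

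The other 2 J-domain co-chaperones went down. Dnajb9 (ERdj4, chr12:44205559-44210326), which directs BiP to IRE1 and to proteins for degradation, was 67.4 and 66.2 RPKM in resting cells, 18.8, 19.00 and 20.4 RPKM at 4 h, 17.9, 15.2 and 14.9 RPKM at 12 h and 8.17, 10.2 and 10.8 RPKM at 24 h. No culture came near the resting level, and the 3 conditions followed each other closely. The log2 change was -1.76 at 4 h and -2.73 ± 0.13 SE at 24 h (adjusted p = 1.56e-11, limma), the largest change among the 34 genes, and no alternative removed it. Dnajc3 (p58IPK), a co-chaperone that also restrains PERK, fell from 39.98 and 37.4 RPKM at rest to 20.2, 23.1 and 26.3 RPKM at 4 h and 24.00, 23.01 and 26.7 RPKM at 24 h (log2 change -0.65 ± 0.11 SE, adjusted p = 1.04e-04, limma). Dnajc3 has the ERSE shown above, in a RefSeq promoter whose start lies 44 bases before the GENCODE start of the gene. ERSEs were also found for Hspa5, whose change at 24 h did not pass, and Hsp90b1 and Creld2, which rose.

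The lectin chaperones, which hold glycoproteins until they are folded, rose by similar amounts. Calr went from 326 and 317 RPKM at rest to 621, 627 and 485 RPKM at 24 h in Th0, Th1 and Th2 (log2 change 0.83 ± 0.18 SE, adjusted p = 8.51e-04, limma). Canx, the membrane-bound relative, went from 125 and 118 to 224, 218 and 218 RPKM (log2 change 0.85 ± 0.18 SE, adjusted p = 7.19e-04, limma). Both were near rest at 4 h, with 263, 307 and 298 RPKM for Calr. At 24 h all 3 cultures of each gene were above rest, and both rises at 24 h held under every alternative.

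Among the disulfide isomerases, which form and rearrange disulfide bonds, 3 of 4 rose at 24 h. Pdia6 was 62.7 and 62.4 RPKM in resting cells, 54.95, 64.9 and 69.2 RPKM at 4 h, 87.1, 129 and 170.2 RPKM at 8 h and 123, 137 and 126 RPKM at 24 h (log2 change 1.03 ± 0.20 SE, adjusted p = 2.60e-04, limma). P4hb, the founding member of the family, went from 112 and 107 to 212, 220.1 and 208 RPKM (log2 change 0.96 ± 0.16 SE, adjusted p = 5.81e-05, limma). Pdia3, the partner of calnexin and calreticulin, went from 243 and 236 to 379.5, 397 and 298 RPKM (log2 change 0.57, adjusted p = 0.00111). Pdia4, the fourth isomerase, was 48.7 and 50.8 RPKM in resting cells, 31.98, 30.8 and 43.1 RPKM at 4 h and 59.9, 69.5 and 47.9 RPKM at 24 h, where the change did not pass (log2 change 0.23 ± 0.15 SE, adjusted p = 0.175, limma). Its fall at 4 h passed (adjusted p = 0.0141, limma) but was lost in 5 of 15 alternatives. Among them were the fits without either resting library, and those without Th0 and without Th1 (adjusted p = 0.0953 and 0.116, limma).

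Among the sensors, both rises and falls passed. Ern1 (chr11:106394650-106487852), the gene for IRE1, was 5.29 and 5.57 RPKM at rest and 11.6, 10.5 and 7.14 RPKM at 4 h, above rest in all 3 cultures. It was 4.69, 4.896 and 5.23 RPKM at 8 h, and 1.88, 2.64 and 1.75 RPKM at 24 h, below rest in all 3. Both the rise at 4 h (log2 change 0.76 ± 0.18 SE, adjusted p = 0.00342) and the fall at 24 h (log2 change -1.21 ± 0.18 SE, adjusted p = 2.09e-05) passed in limma and held under all 14 alternatives that tested the gene. Xbp1 (chr11:5520659-5525893), the mRNA that IRE1 splices, rose early and stayed higher, from 54.6 and 59.8 RPKM at rest to 80.4, 75.1 and 100.3 RPKM at 4 h (log2 change 0.56 ± 0.12 SE, adjusted p = 0.00235) and 78.00, 74.6 and 72.03 RPKM at 24 h (log2 change 0.39 ± 0.12 SE, adjusted p = 0.0118). The call at 24 h was lost in 3 of 15 alternatives, among them without resting replicate 1 and without Th1 (adjusted p = 0.0677 for the latter, limma). Atf6 was 5.73 and 5.897 RPKM at rest and 3.498, 4.54 and 3.38 RPKM at 4 h, a fall that passed (log2 change -0.56 ± 0.16 SE, adjusted p = 0.0142, limma). That call was lost in 5 of 14 alternatives, among them without either resting library and without Th2 (adjusted p = 0.0537 for the latter, limma).

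Of the 7 translocon genes 6 rose at 24 h. The channel subunit Sec61a1 went from 91.00 and 99.1 RPKM at rest to 148, 156 and 155 RPKM (log2 change 0.69 ± 0.17 SE, adjusted p = 0.00191, limma), and Sec61b from 100.1 and 95.2 to 149, 129.6 and 186 RPKM (adjusted p = 0.00543). The third subunit, Sec61g, did not pass at any time point, with 104 and 95.5 RPKM in resting cells and 101, 88.02 and 142 RPKM at 24 h. Ssr2, of the translocon-associated complex that aids insertion, rose most in this group, from 40.5 and 45.6 to 81.8, 89.8 and 85.1 RPKM (log2 change 0.98 ± 0.19 SE, adjusted p = 2.27e-04, limma). Ssr1 rose by 0.59 and Ssr4 by 0.76 on the log2 scale. Ssr3 rose by 0.34 (adjusted p = 0.0137, limma), a call lost in 4 of 15 alternatives, among them without resting replicate 2. Over the alternatives its change lay between 0.089 and 0.413. Other genes' transcripts hold between 10.6% and 17.4% of the 50-base windows of Sec61b, Sec61g, Ssr2 and Spcs1, and how such reads were counted is not given. Exons of other genes cover 12.8% of the exon bases of Ssr2, 16.3% of those of Spcs1 and 15.7% of those of Hsp90b1, and whether strand was used is not given. The levels of these 5 genes are less certain.

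All 3 genes of signal peptidase rose at 24 h. Spcs3, a subunit the enzyme needs for activity, went from 35.1 and 33.7 RPKM at rest to 35.3, 44.6 and 41.7 RPKM at 4 h and 65.6, 65.9 and 66.7 RPKM at 24 h (log2 change 0.93 ± 0.12 SE, adjusted p = 8.84e-06, limma), with no overlap at 24 h. Spcs2 rose less but evenly, from 42.3 and 43.1 to 56.3, 60.7 and 56.9 RPKM (log2 change 0.44, adjusted p = 1.95e-04). Spcs1 was 69.5 and 65.1 RPKM in resting cells, 94.8, 111 and 95.9 RPKM at 8 h and 80.6, 75.8 and 109.7 RPKM at 24 h. Its call at 24 h (adjusted p = 0.0302, limma) was lost in 8 of 15 alternatives, among them without either resting library (adjusted p = 0.0704 and 0.152), without Th0 (0.0509) and without Th2 (0.0716).

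Of the 6 genes of ER-associated degradation, 1 rose and 3 fell at 24 h. Herpud1 (chr8:94386438-94395377), a membrane scaffold of the ubiquitin ligase complex and the carrier of the ERSE-II above, was 66.5 and 64.3 RPKM in resting cells, 34.02, 33.6 and 39.1 RPKM at 4 h and 33.5, 40.9 and 30.5 RPKM at 24 h. All 18 cultures lay below both resting libraries, and the fall at 24 h (log2 change -0.90 ± 0.12 SE, adjusted p = 8.33e-06, limma) held under all 15 alternatives. Edem1 (chr6:108828641-108859356), which marks misfolded glycoproteins by trimming mannose, was 43.98 and 43.6 RPKM at rest and 33.5, 37.1 and 21.2 RPKM at 24 h (log2 change -0.55 ± 0.21 SE, adjusted p = 0.0301, limma). This call was lost in 4 of 15 alternatives. Among them were the fits without either resting library, and that without the Th2 cultures of 4 and 24 h (adjusted p = 0.132, limma). Sel1l, the adaptor of the ligase, went from 22.6 and 22.7 to 18.8, 18.2 and 16.7 RPKM (adjusted p = 0.0253, limma). Its call was lost in 4 of 15 alternatives, among them without either resting library and without Th1 (adjusted p = 0.102 for the latter, limma).

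The gene of the ligase itself, Syvn1 (HRD1), did not pass at any time point although it has an ERSE. It was 22.00 and 24.03 RPKM at rest and 20.2, 20.6 and 18.8 RPKM at 24 h. The derlins form part of the exit channel. Derl2 rose from 21.97 and 19.8 RPKM at rest to 28.2, 33.3 and 28.7 RPKM at 4 h and 28.6, 30.2 and 31.3 RPKM at 24 h (log2 change 0.51 ± 0.10 SE, adjusted p = 3.40e-04, limma), and held under all alternatives at both times. Derl1 did not pass at any time point, with 36.1 and 37.1 RPKM at rest and 30.6, 34.6 and 38.1 RPKM at 24 h.

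The second comparison asked whether the skewing conditions differ, with the time point as a factor over the 18 cultures. None of the 34 genes differed by at least 2-fold at an adjusted p under 0.05 (limma) for Th2 against Th0, Th2 against Th1 or Th1 against Th0, where 2.01%, 1.96% and 0.494% of the 10737 genes tested did. At an unadjusted p under 0.05 the numbers were 15, 5 and 3 of the 34, against 41.2%, 25.3% and 16.4% of all genes. At an adjusted p under 0.05 and any size, 10 genes were higher and 1 was lower in Th2 than in Th0, against 12.9% and 16.7% of all genes. The 10 were Hyou1, Sdf2l1, Canx, Pdia6, P4hb, Sec61a1, Sec61b, Ssr2, Ssr4 and Spcs3. Their differences were small, from 0.20 for Spcs3 to 0.42 for Sdf2l1 on the log2 scale. The median over the 34 was 0.14 against 0.00 over all genes, and 29 of the 34 differences were positive. The count depends on the time points: without the 4 h cultures 2 genes passed, without 8 h 3, without 12 h 2, without 16 h 5, and with the 12 to 24 h cultures alone 1. Th2 against Th1 gave 1 gene, which was lower in Th2 (8.71% of all genes were), and Th1 against Th0 gave none by limma at any size. The 3 comparisons share cultures and are not independent.

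The gene that was lower in Th2 in both comparisons was Edem1. Its levels in Th2 from 4 to 24 h were 29.1, 24.9, 22.8, 23.7, 22.6 and 21.2 RPKM. In Th0 they were 36.98, 32.6, 28.5, 29.6, 31.5 and 33.5 RPKM and in Th1 37.4, 27.2, 25.3, 29.7, 31.6 and 37.1 RPKM. Th2 was the lowest of the 3 at each of the 6 time points. The log2 difference was -0.41 ± 0.08 (SE), adjusted p = 0.00144 against Th0 and -0.37 ± 0.08 (SE), adjusted p = 0.00474 against Th1 (limma). The call against Th0 held under all 17 alternatives, and it was the one call of Th2 against Th0 among the 34 genes that remained with the 12 to 24 h cultures alone.

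Of the 10 higher genes, 2 had their largest ratio of Th2 to Th0 at 4 h, 7 at 8 h and 1, Ssr4, at 24 h. Hyou1 in Th2 was 47.2, 115, 94.2, 93.1, 91.7 and 63.5 RPKM from 4 to 24 h. The same gene in Th0 was 35.8, 49.8, 71.6, 77.1, 77.8 and 74.9 RPKM. Th2 was higher at 5 of the 6 time points and lower at 24 h. The difference was 0.38 ± 0.13 (SE), adjusted p = 0.0348 (limma), and it was lost without the 8 h cultures (adjusted p = 0.129), and likewise without those of 4, 12, 16 or 20 h. Pdia6 in Th2 was 69.2, 170.2, 155, 136, 138 and 126 RPKM and in Th0 54.95, 87.1, 118, 120.1, 129 and 123 RPKM, higher in Th2 at all 6 time points. Its difference was 0.33 ± 0.10 (SE), adjusted p = 0.0218 (limma), lost without 4, 8 or 12 h (adjusted p = 0.0547, 0.0713 and 0.0716). Ssr4 had a difference of 0.32 ± 0.08 (SE), adjusted p = 0.00857 (limma), and lost its call in 1 of 17 alternatives. Th2 was the highest of the 3 conditions for 23 of the 34 genes at 4 h, 22 at 8 h, 20 at 12 h, 17 at 16 h, 12 at 20 h and 11 at 24 h. Over all genes tested that share was 37.3% at 4 h, 40.7% at 8 h and 42.7% at 12 h. It was 40.7% at 16 h, 37.7% at 20 h and 31.7% at 24 h. Of the 34 genes it was 35.3% at 20 h and 32.4% at 24 h, near the share of all genes. Th0 was the lowest for 27 of the 34 genes at 8 h, and for 41.9% of all genes tested. At 8 h Th1 was above Th0 for 29 of the 34 genes, as many as Th2 was. Over all genes tested those shares were 49.3% for Th1 and 50.3% for Th2. The median difference of the 34 at 8 h was 0.28 for Th1 minus Th0 and 0.12 for Th2 minus Th1.

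**Figure D3:**
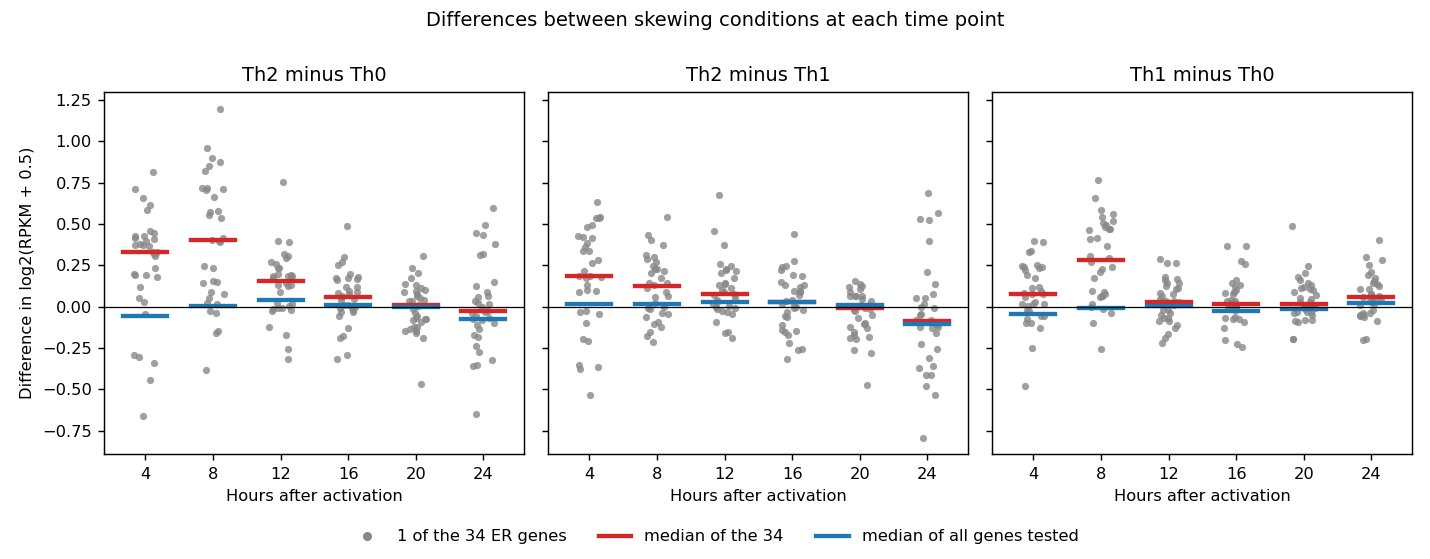
Differences in log2(RPKM + 0.5) between skewing conditions at each time point, with 1 grey point for each of the 34 ER genes, a red bar at their median and a blue bar at the median of all genes tested. For Th2 minus Th0 the median of the 34 is 0.33 at 4 h and 0.40 at 8 h and ends at -0.03 at 24 h.

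Whether the difference between conditions changes over the course was tested as the fitted change of that difference from 4 to 24 h. For Th2 against Th0, 3 of the 34 genes passed (limma), all of them moving down, against 4.05% of all genes. These were Sdf2l1 (-1.001 ± 0.27 (SE), adjusted p = 0.0452), Hspa5 (-0.93 ± 0.23 (SE), adjusted p = 0.0311) and Pdia4 (-0.60 ± 0.16 (SE), adjusted p = 0.0490). At 4 h Hspa5 stood at 471 RPKM in Th2 and 268 in Th0, and at 24 h at 484 and 495. The change was negative for 28 of the 34 genes, with a median of -0.28 against 0.00 over all genes. For Th2 against Th1, Pdia4 passed (-0.86 ± 0.16 (SE), adjusted p = 0.0233, limma), 1 of 34 where 0.81% of all genes did so in that direction. For Th1 against Th0 none passed in limma, where 0.0279% of all genes did, and 3 of the 34 had an unadjusted p under 0.05, against 9.23% of all genes. These calls rest on few libraries. The Th2 cultures of 4 and 24 h stood apart from the other cultures of their time in the level of transcripts under 1000 bases, whose median log2 deviation was -0.13 in Th2 at 4 h against -0.37 in Th0 and -0.42 in Th1, and 0.18 at 24 h against 0.06 and 0.01. Without these 2 cultures no call of this kind remained for either comparison, and the median over the 34 was -0.48. Without the 4 h cultures the count for Th2 against Th0 was 13, and without those of 12, 16, 20 or 24 h it was 0. The shares of all genes in these fits are not given here, so the counts show only that the calls depend on single time points.

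The third comparison followed the mRNAs after transcription was stopped. Values are relative to all mRNA that remained, so a gene with no slope decays like the average. With actinomycin 6 of the 34 genes fell (limma), where 12% of the 10571 genes tested fell. The 6 were Hspa5, Dnajb9, Pdia4, Xbp1, Spcs3 and Herpud1. Dnajb9 fell fastest, with 14.6, 9.89, 9.47 and 5.55 RPKM at 0, 1, 2 and 4 h, so that 38.1% was left. Hspa5 was 596, 528, 466 and 294 RPKM, with 49.3% left. Pdia4 was 57.3, 49.6, 36.2 and 29.5 RPKM and Herpud1 28.4, 30.7, 18.9 and 15.1 RPKM at the same times. The slopes were -0.31 ± 0.07 (SE) for Dnajb9, -0.26 for Hspa5, -0.25 for Herpud1 and -0.24 for Pdia4, in log2 units per hour. Xbp1 and Spcs3 fell less, with 65.7% and 59.4% left. The isomerases Pdia3, Pdia6 and P4hb and the lectin Calr had values of 118% to 125% of the start at 4 h, and their slopes did not pass. Over the 34 genes the median ratio of 4 h to 0 h was 0.849, against 0.999 over all genes tested. Dnajb9, Hspa5, Pdia4 and Herpud1 kept their calls except in 2 of 12 alternatives each, while Spcs3 lost its call in 5 and Xbp1 in 8 of 12. With 4 libraries a single one decides: without the 4 h library none of the 34 passed, without 0 h 1 did, and without 2 h 12 did. The shares of all genes in these smaller fits are not given here, so the counts show only that the calls depend on 1 library. Transcripts under 1000 bases had a median log2 deviation of 0.15 at 0 h, 0.33 at 1 h, 0.39 at 2 h and 0.27 at 4 h, and its part in these slopes was not tested.

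**Figure D4:**
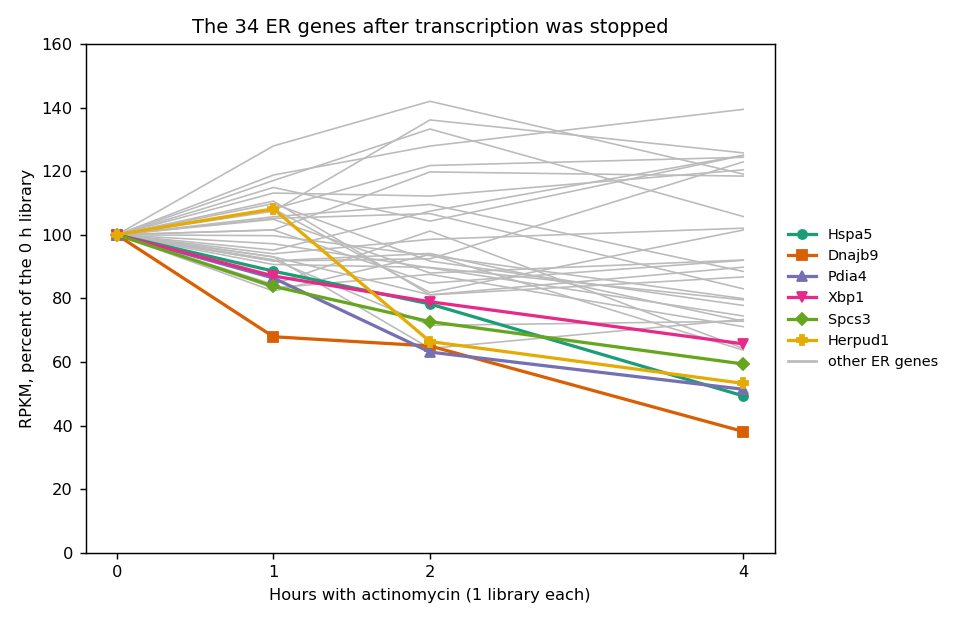
RPKM of the 34 ER genes as a percentage of the 0 h library against hours with actinomycin, 1 library per time. The 6 genes that fell are coloured and the other 28 are grey; Dnajb9 ends lowest at 38.1%, and the grey lines end between 63.7% and 139%.

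The rest of the pathway was read from lists of further ER genes. Their counts at 24 h stand against the 31.6% of all genes that rose and the 33.6% that fell. In the branch of PERK and ATF4, which lowers protein synthesis and raises amino acid supply, 1 of 10 genes tested rose and 4 fell at 24 h (limma). Ppp1r15a, the phosphatase subunit that restores protein synthesis, went from 325.7 RPKM at rest (mean of 2) to 16.6, 17.6 and 12.9 RPKM at 24 h (log2 change -4.34). Asns, an ATF4 target that makes asparagine, changed by -2.01 on the log2 scale. Atf3, a transcription factor of stress responses, differed at least 2-fold between conditions. It was 70.2, 41.5, 31.4, 24.9, 23.4 and 25.8 RPKM in Th2 from 4 to 24 h. In Th0 it was 11.97, 11.6, 15.4, 12.8, 12.3 and 14.01 RPKM and in Th1 8.84, 10.1, 9.01, 7.603, 6.800 and 7.75 RPKM. Th2 did not overlap the others at any time point, and the log2 difference was 1.33 ± 0.17 (SE) against Th0 and 1.95 against Th1 (adjusted p = 5.09e-05 and 1.16e-06, limma).

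Of the 11 genes of oligosaccharyltransferase, which attaches glycans to proteins as they enter the ER, 9 rose at 24 h, with a median log2 change of 0.55. Rpn1 rose by 1.35 and Stt3a, a catalytic subunit, by 1.03. In Th2 5 of the 11 were higher than in Th0, where 12.9% of all genes were. Of 14 genes for signal recognition and other translocation steps 8 rose and 2 fell, with a median of 0.40. Among 17 further folding enzymes 3 rose and 2 fell. Mogs, which trims the first glucose from glycans, rose by 1.60 and the oxidase gene Ero1l by 1.23, while its relative Ero1lb fell by 1.51 on the log2 scale. Of 20 further degradation genes 4 rose and 8 fell, with a median of -0.20. Vcp, the ATPase that pulls proteins into the cytosol, rose by 1.13, while Derl3 (-1.76) and the lectin Os9 (-1.002) fell. Derl3 is also on the list of plasma cell markers. Of 5 genes for ATF6 processing and related factors 2 rose and 2 fell, and of 16 COPII genes, which carry cargo out of the ER, 6 rose and 2 fell, with changes past 2-fold for the coat subunits Sec13 (1.08), which rose, and Sec24d (-1.09), which fell. The change from 4 to 24 h of the difference between Th2 and Th0 also passed for 4 genes of these lists (limma). In the PERK and ATF4 branch 1 of 10 genes tested moved down, and in oligosaccharyltransferase 1 of 11. In COPII 1 of 16 moved down and 1 moved up, and none passed in the other lists. Of all genes 4.05% passed moving down, and the share that passed moving up is not given here. The change was -1.57 for Atf3 (adjusted p = 0.0148, limma), -0.84 for Rpn1 (0.0312), -0.65 for Sec24a (0.0456) and 0.76 for Sec23a (0.0476), the last 2 both of COPII. Against Th1 the change passed for Sec24a (-1.06, adjusted p = 0.00951, limma), where 0.81% of all genes passed in that direction. These values were not recomputed without the Th2 cultures of 4 and 24 h.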

How the data were processed

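RNA-seq values were analysed from 24 libraries of mouse CD4+ T cells, grouped by their labels. The authors deposited RPKM per gene symbol, a read count scaled to transcript length and to the mapped reads of the library, from BWA alignments to GRCm38 according to the submitters' processing notes. The counter, annotation and versions are not given in the sources used here, nor is whether strand was used. RPKM scales every library to its total, so a few abundant transcripts can move all other values. The table held 22010 entries, 1 of them without a gene name, which was left out. No value columns were left unused.

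Mapped reads per library were recovered by matching the deposited RPKM values, multiplied by the lengths of single-transcript genes (GENCODE M21), to whole reads within 0.02. All values above 0 were whole in this sense for 1459 of 2396 such genes (60.9%), so a count model was not used. Exact Poisson intervals have a level of 95%.

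limma 3.58.1 (R 4.3.3) was run with an intensity trend on log2(RPKM + 0.5). Genes needed a mean of 1 RPKM or more, and p-values were adjusted by Benjamini-Hochberg over all genes tested. This scale understates changes of low genes. For each time point its 3 cultures were set against the 2 resting libraries in a fit of all 20 time course libraries, so the spread includes differences between skewing conditions. Conditions were compared in a fit of the 18 cultures that also held the time point, the change of their difference as an interaction with time, and actinomycin as a slope over 4 libraries. The threshold was an adjusted p under 0.05, with and without a 2-fold change. The fits were tested on simulated data. Alternatives were a pseudocount of 0.1 or 1, dropping the filter or raising it to 5 RPKM, 3 other scalings, no trend, fewer libraries, and leaving out each resting library, condition or time point. Leaving out the Th2 cultures of 4 and 24 h was added after seeing the data.

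The 34 genes and all lists were chosen with earlier results of these data known. All 34 are named. From the other lists the genes named are the 2 largest rises and falls at 24 h past the 2-fold threshold, and those called between conditions. Promoters are RefSeq sequences of GRCm38.p6, and gene positions are GENCODE M21 on GRCm38. All 28 promoter entries have the strand of the annotation. In 26 the bases after the start are in a GENCODE transcript, and in the others, of Dnajc3 and Pdia4, the GENCODE start lies 44 and 82 bases further on. Tables and figures were made with Python 3.11.15, numpy 2.4.6, pandas 2.3.3 and scipy 1.17.1.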

Additional observations from a re-analysis of the deposited data

Results flagged for a closer look

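In 3 genes the difference between skewing conditions itself changed between 4 and 24 h, by the interaction test in limma. Relative to Th0, Th2 cultures moved by -1.001 on the log2 scale for Sdf2l1, by -0.93 for Hspa5 and by -0.60 for Pdia4 (adjusted p = 0.0452, 0.0311 and 0.0490). Relative to Th1, Pdia4 moved by -0.86 (adjusted p = 0.0233). All 4 values kept their direction in every alternative but lost the threshold without the Th2 cultures of 4 and 24 h. Of 15 alternatives, Sdf2l1 lost its call in 10, Pdia4 in 9 against Th0 and 6 against Th1, and Hspa5 in 6. Of all genes tested, 4.05% passed in this direction against Th0 and 0.81% against Th1, and the part of these libraries in the result was not tested further.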

How the results depend on the processing

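Of 158 results on single genes under 2371 alternatives, 2071 kept direction and threshold, 300 lost the threshold and 0 reversed. Counts of genes among the 34 moved more. With an adjusted p under 0.05 and no 2-fold rule, the counts were 10 at 4 h, 24 at 8 h, 24 at 12 h, 26 at 16 h, 25 at 20 h and 27 at 24 h, 11 for Th2 against Th0 and 1 for Th2 against Th1. With the 2-fold rule, upper-quartile scaling and quantile normalization each gave 3 at 20 h and 3 at 24 h, and quantile normalization or leaving out the Th2 cultures of 4 and 24 h gave 2 at 4 h. At 24 h upper-quartile scaling moved the median of all genes to -0.13 and quantile normalization to 0.11. Without the 2-fold rule, 12 genes passed at 8 h when just these 2 time points were fitted. Th2 against Th0 then gave 6 with no filter, 2 with just these 2 conditions and 1 with 12 to 24 h, and Th2 against Th1 gave 2 with median-of-ratios or upper-quartile scaling. The change of the difference from 4 to 24 h gave 1 for Th2 against Th0 with no filter, upper-quartile scaling or no trend and 0 without the Th2 cultures of 4 and 24 h, and 0 for Th2 against Th1 with upper-quartile scaling or without those cultures. Actinomycin gave 3 with no filter. The causes were not tested.

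Leaving out 1 resting library, condition or time point gave these ranges. With the 2-fold rule they were 1 to 2 at 4 h, 1 to 3 at 8 h and 2 to 4 at 16 h. Without it they were 6 to 11 at 4 h, 10 to 25 at 8 h, 16 to 26 at 16 h, 2 to 15 for Th2 against Th0 and 1 to 2 for Th2 against Th1. The change of the difference gave 0 to 13 for Th2 against Th0 and 0 to 2 for Th2 against Th1, and actinomycin 0 to 12. The shares of all genes in these fits are not given here. The cultures had 1 library per condition and time point, so no pairing by replicate was possible. The fits between conditions matched the cultures by time point. With 1 library per culture, the depth limits mostly Sdf2l1, Dnajb9, Ern1 and Atf6, which have the fewest reads or the lowest values.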
